A study of Drosophila melanogaster with 2 samples.

Results

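A set of 253 peaks of the transcription factor Drgx lay at promoters of non-coding genes only, out of 8443 peaks in the pooled list (3.0%, 95% exact interval 2.64 to 3.38%). A peak was taken when its summit, the position of the highest signal inside the peak, lay within 500 bp of an annotated transcription start of a gene that is not protein-coding and no protein-coding start lay within 500 bp of that summit. The rule used positions alone and no measured height. Chromosomes X, 2L, 2R, 3L, 3R and 4 were read, and the members were nearest to 228 non-coding genes. The protein-coding promoters held 2852 peaks of the same list (33.8%), and 5338 peaks (63.2%) had no start of either kind within that distance. A further 134 peaks lay near both a non-coding and a protein-coding start and were counted with the protein-coding promoters.

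The sites bound in chromatin were mapped by ChIP-seq, that is by sequencing DNA precipitated with an antibody, in whole embryos of Drosophila melanogaster at an age of 1 day, of the strain Drgx-GFP, which expresses Drgx fused to eGFP, a green fluorescent protein. The precipitating antibody was raised against GFP per the description of the experiment, while another label field names Drgx, and chromatin was sonicated to 200 to 800 bp. The 2 libraries are biological replicates of 1 group and share a fly line in the labels, given as an insertion targeting D. melanogaster Drgx. The labels name a possible control experiment that was not used here. Because whole embryos were taken, the cell type in which a site was occupied is unknown. Which promoter drives the tagged gene is not stated in the labels. Sequencing depth is unknown, since only peaks were used. With a single group and no control values, no difference between conditions could be tested, and the intervals given are exact Clopper-Pearson intervals that cover counting error only.

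Drgx is the fly member of a paired-type homeodomain family, whose mammalian relative is known for its role in spinal sensory neurons of the mouse. Homeodomains bind short AT-rich sites built on the core TAAT. Non-coding genes are transcribed by different machinery. Long non-coding RNAs (lncRNAs), antisense RNAs, most small nuclear RNAs (snRNAs) and the primary transcripts of microRNAs (miRNAs) are made by RNA polymerase II, as messenger RNAs are, whereas transfer RNAs (tRNAs) and a few other small RNAs are made by RNA polymerase III. A miRNA is cut from a hairpin that often lies far from the start of its primary transcript, so the promoter of the host transcript and the hairpin can be well apart.

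The start of the host transcript of mir-279 and mir-996 carried the strongest member, and it is given with 3 further starts of miRNA host transcripts as examples. They are 4 of the 10 host peaks found in both replicates, and the host of mir-14, described below, had the second tallest peak and is not printed. Each stretch is the strand of the dm6 reference that has the sequence of the transcript, read 5′ to 3′. It runs from 40 bases before the summit to base 30 of the transcript. Capitals mark the first 30 transcribed bases, and the summit is base 41 of each stretch. The host starts were singled out after their values were seen.
lncRNA:CR31044, host of mir-279 and mir-996 (3R:29214404-29214591, plus strand): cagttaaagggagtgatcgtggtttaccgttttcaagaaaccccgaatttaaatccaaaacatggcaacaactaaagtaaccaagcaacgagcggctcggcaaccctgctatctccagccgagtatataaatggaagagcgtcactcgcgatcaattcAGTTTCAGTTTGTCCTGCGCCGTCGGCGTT
lncRNA:CR46006, downstream start, host of mir-276a (3L:10363842-10364048, plus strand): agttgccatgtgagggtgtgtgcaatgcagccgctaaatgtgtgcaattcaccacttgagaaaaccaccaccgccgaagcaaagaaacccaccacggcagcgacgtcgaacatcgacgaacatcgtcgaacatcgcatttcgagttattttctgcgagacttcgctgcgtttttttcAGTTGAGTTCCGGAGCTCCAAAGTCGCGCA
lncRNA:CR46006, upstream start, host of mir-276a (3L:10332292-10332490, plus strand): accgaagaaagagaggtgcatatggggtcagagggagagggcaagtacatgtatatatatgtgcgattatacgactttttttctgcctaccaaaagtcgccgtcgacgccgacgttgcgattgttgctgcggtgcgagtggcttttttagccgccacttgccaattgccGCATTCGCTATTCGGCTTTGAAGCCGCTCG
lncRNA:CR43857, host of mir-275 (2L:7423574-7423849, plus strand): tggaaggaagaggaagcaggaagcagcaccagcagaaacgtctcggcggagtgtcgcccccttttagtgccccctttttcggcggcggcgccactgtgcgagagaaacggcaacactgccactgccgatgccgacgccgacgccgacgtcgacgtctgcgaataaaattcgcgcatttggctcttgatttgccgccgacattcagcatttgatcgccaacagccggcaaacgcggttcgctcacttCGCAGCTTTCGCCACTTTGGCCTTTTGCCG
In the first of these the word TATAAA began 33 bases before the transcription start. In the start of lncRNA:CR31044 and the downstream start of lncRNA:CR46006 the word TCAGTT, a form of the fly initiator element, had its A on the first transcribed base. The upstream start of lncRNA:CR46006 and the start of lncRNA:CR43857 held neither word at those positions, and nor did the start of the mir-14 host.

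The mature miRNAs cut from these hosts are given with the seed, bases 2 to 8, in capitals, because the strongest member lies at the start of a transcript whose miRNAs share that seed. The arms shown are those recorded in the annotation, read from the dm6 reference as RNA.
miR-279, 3′ arm (3R:29215651-29215672, plus strand): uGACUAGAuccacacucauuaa
miR-996, 3′ arm (3R:29217244-29217265, plus strand): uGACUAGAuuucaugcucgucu
miR-276a, 3′ arm (3L:10365281-10365302, plus strand): uAGGAACUucauaccgugcucu
miR-275, 3′ arm (2L:7425853-7425875, plus strand): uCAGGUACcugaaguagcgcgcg
The 3′ arms of miR-279 and miR-996 had the seed GACUAGA in common, and the other arms listed for these hosts each had a seed of their own. In flies miR-279 is known for restricting the formation of carbon dioxide sensing neurons.

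Of the 253 members, 132 overlapped a thresholded peak of both replicates (52.2%, 95% exact interval 45.8 to 58.5%). The share was 51.1% over all 8443 pooled peaks, 51.7% at protein-coding promoters and 50.7% away from promoters. Recovery at non-coding promoters thus lay near the background. In each set, pooled peaks that overlap each other can be counted with the same replicate peak. Replicate 1 alone held 44 further members, replicate 2 alone held 24, and 53 members (20.9%) had a thresholded partner in neither replicate, against 18.2% of all peaks. All but 1 of the members overlapped an unthresholded ranked peak in both replicates, and 218 (86.2%) overlapped the authors' conservative list. The same rule applied to each replicate's own list found 174 of 6349 peaks in replicate 1 (2.74%) and 157 of 5475 in replicate 2 (2.87%).

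The members spanned nearly the whole range of peak height. The signal is the authors' value per peak on an unstated scale, and it serves only to rank peaks within a list. Pooled signal ran from 2.79 to 1722 with a median of 118, against a median of 122 at protein-coding promoters and 119 away from promoters. The median member stood at percentile 49.1 of the pooled list. In the tenth of the list with the highest signal were 33 members, or 13.0% of them, beside 13.2% of the peaks at protein-coding promoters and 8.13% of those away from promoters. Only 9 members had a signal under 30, and each of these 9 overlapped a taller pooled peak.

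Recovery followed signal. When the members were ordered by pooled signal and divided into 4 equal groups, 64 of 64 in the highest group were in both replicates, 50 of 63 in the second, 13 of 63 in the third and 5 of 63 in the lowest. The groups were bounded at signals of 230, 118 and 86.9. The 5 of the lowest group were at lncRNA:CR45640, tRNA:Phe-GAA-1-6, lncRNA:CR44331, RNaseMRP:RNA and lncRNA:CR45564. Each overlapped a taller pooled peak, of 352, 156, 179, 110 and 164 in that order. The replicate peaks counted for them can therefore belong to the taller peak. At protein-coding promoters the shares by group were 97.6%, 78.4%, 21.3% and 9.40%. The highest signals of a member with no partner in either replicate were 134 at lncRNA:CR44727, 125.3 at mir-9370, 102 at lncRNA:CR45677 and 100.7 at lncRNA:CR44522.

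**Figure D1:**
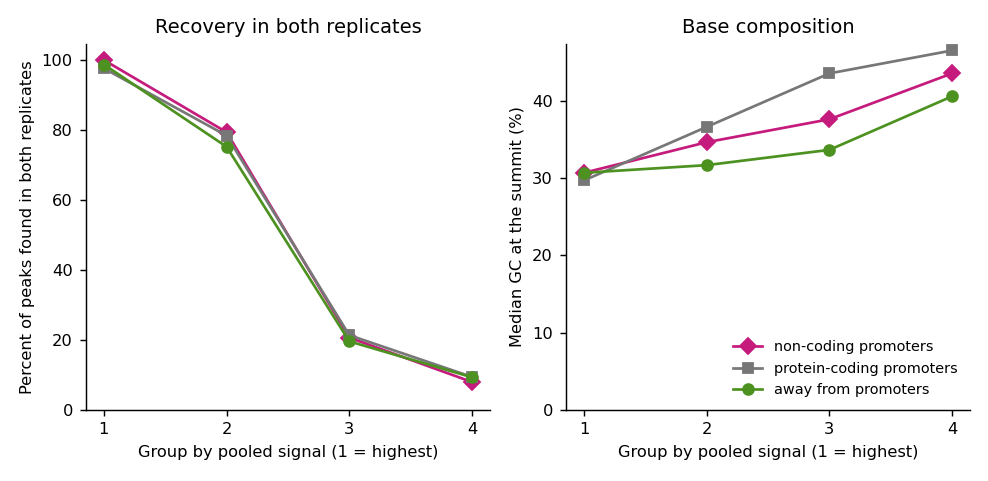
Peaks of the pooled list at non-coding promoters (253), at protein-coding promoters (2852) and away from promoters (5338), each ordered by pooled signal and split into 4 equal groups (x axis, 1 is the highest). The left panel gives the percent of peaks overlapping a thresholded peak of both replicates and the right panel the median percent GC of the summit base and 50 bases on either side. In the non-coding promoters recovery falls from 100% to 7.94% while median GC goes from 30.7% to 43.6%.

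Base composition moved with signal in the same members. The summit base with 50 bases on either side had a median GC content of 30.7% in the highest of these groups, 34.7% and 37.6% in the next and 43.6% in the lowest. The corresponding medians at protein-coding promoters were 29.7%, 36.6%, 43.6% and 46.5%. Over all members the median was 35.6%, beside 38.6% at protein-coding promoters and 34.7% over all peaks. The part of base composition in the signal was not tested.

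Across the 132 members found in both replicates the replicate signals rose together, with a Spearman rho of 0.782 and a Pearson r of 0.850 on log2 signal. Both values describe peaks that come from the same libraries and were chosen for presence in both. Members that overlap each other can also share their replicate peaks. Replicate 1 had the larger value in 112 of the 132. The median ratio of replicate 1 to replicate 2 was 1.33, and it was 1.34 over the 4313 such peaks of the whole list, so the members and all peaks had about the same offset.

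**Figure D2:**
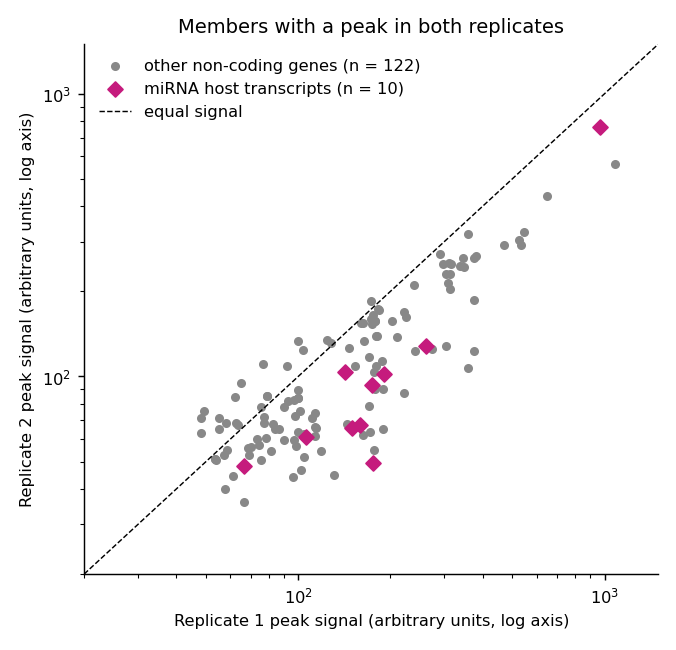
Signal of the replicate 1 peak (x axis, arbitrary units, log scale) against that of the replicate 2 peak (y axis, arbitrary units, log scale) for the 132 members in both replicates. Diamonds are the 10 peaks at miRNA host transcripts, grey points are the 122 others, and the dashed line marks equal signal. Most points lie below the line, with 112 of 132 higher in replicate 1.

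The 20 strongest members found in both replicates had pooled signals of 518 to 1722 and ranks 19 to 405 of 8443. They comprised 17 at lncRNAs, 2 at antisense RNAs and 1 at a miRNA. In all 20 the replicate 1 value exceeded the replicate 2 value. Of these 20, 13 lay outside protein-coding genes and 7 in introns of such genes, and 18 had a GC content below the median of all peaks. The nearest protein-coding start was 656 to 13486 bp away.

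The strongest was lncRNA:CR31044, named pri-mir-279_mir-996 in RefSeq, with a pooled signal of 1722, and with 968 and 760 in replicates 1 and 2. Its peak (3R:29214262-29214609) had the summit 118 bp upstream of the start whose sequence is given above, 5728 bp from the nearest protein-coding start, that of eEF1gamma, which encodes a translation elongation factor subunit. The hairpin of mir-279 began 1023 bp and that of mir-996 2622 bp into the transcript. A separate, lower member had its summit 279 bp upstream of the mir-279 hairpin, with a pooled signal of 176, 101.4 in replicate 1 and 75.8 in replicate 2.

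The peak at lncRNA:CR44619 (X:12751192-12751616) had a signal of 1653, with 1080 in replicate 1 and 566 in replicate 2. Its summit was 478 bp upstream of the start, close to the limit of the rule, and a second peak of signal 1080 lay 505 bp from that start and so fell just outside. The promoter assignment of this pair of peaks thus rested on the limit chosen.

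The third was lncRNA:CR44339 on chromosome arm 2R, with 1064 pooled, 649 in replicate 1 and 435 in replicate 2, 172 bp upstream of the start. The nearest protein-coding start, 4201 bp away, was that of Psc, a Polycomb group gene. The peak at lncRNA:CR44676 had signals of 905, 527 and 305 in the pooled, replicate 1 and replicate 2 lists. Its summit lay 370 bp downstream of the start, on the last base of this gene of 371 bp. That summit was also 4311 bp upstream of the hairpin of mir-9a, a miRNA known for limiting the number of sensory organ precursors, while no summit was found at lncRNA:CR45916, the annotated host of mir-9a.

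Several of the next members lay within long protein-coding genes. The peak at lncRNA:CR46036, on the opposite strand in an intron of osa, which encodes a subunit of the Brahma chromatin remodelling complex, had a pooled signal of 826, 532 in replicate 1 and 291 in replicate 2. At 16.8% its GC content was the lowest of these 20. A second member in the osa gene, at lncRNA:CR46035, had 468, 360 and 107 in the same order of lists.

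The peak at lncRNA:CR45997, in an intron of the splicing factor gene mbl, had a signal of 653, with 380 in replicate 1 and 268 in replicate 2. At asRNA:CR46145, an antisense RNA in the tyrosine kinase gene FER, the summit fell on the annotated start itself, at 0 bp, with signals of 638, 344 and 263. At lncRNA:CR34335, in DIP-alpha, which encodes a neuronal cell surface receptor, they were 634, 374 and 261 in the pooled, replicate 1 and replicate 2 lists. Expression was not measured in this series, so whether these RNAs are made in the sampled embryos is not known from it.

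Other members of the 20 lay outside protein-coding genes. The peak at lncRNA:CR45668 (562 pooled, 312 in replicate 1 and 252 in replicate 2) was 679 bp from the nearest start of the actin gene Act5C. The one at lncRNA:CR42657 (541, 296 and 250) was 699 bp from the start of nej, which encodes a histone acetyltransferase. The one at lncRNA:CR44810 (670, 359 and 319) was 4534 bp from slbo, which encodes a C/EBP factor of border cell migration. For the peaks near Act5C and nej the signal cannot be assigned to either gene. The same holds for asRNA:CR46145, whose summit was 656 bp from the nearest start of FER. It also holds for the other members with a protein-coding start no more than 1000 bp away, 46 members in all.

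The rest of the 20 comprised lncRNA:CR44091 at 891, lncRNA:CR44651 at 768, lncRNA:CR45541 at 586, lncRNA:CR44867 at 584, lncRNA:CR46102 at 546, asRNA:CR45999 at 527, lncRNA:CR44605 at 525, mir-9377 at 519 and lncRNA:CR44537 at 518. At lncRNA:CR44091 the summit lay 61 bp into the gene, the closest to a start among these 9.

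**Figure D3:**
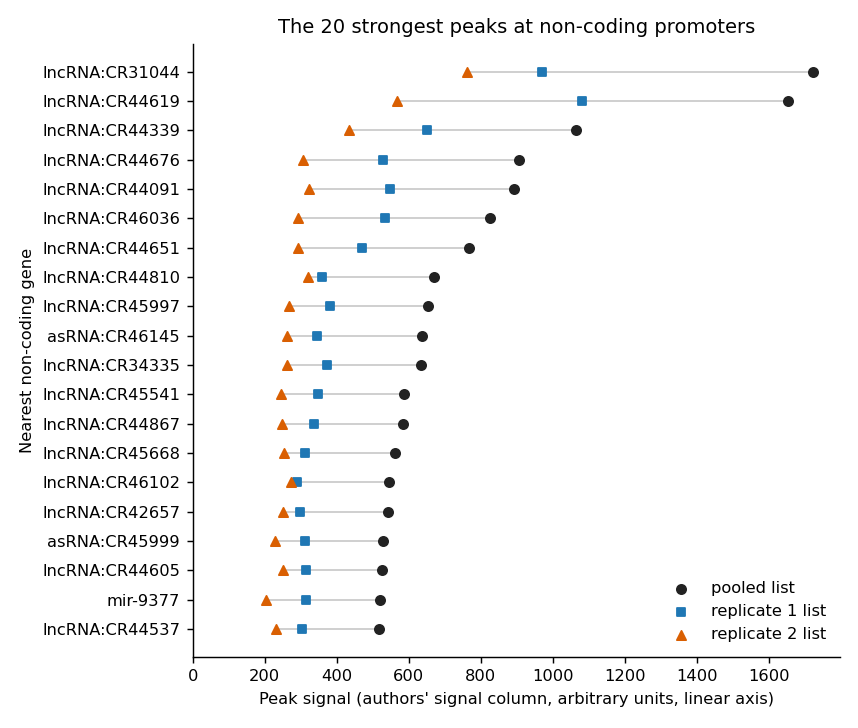
Peak signal (x axis, the authors' arbitrary units, linear) of the 20 strongest members found in both replicates, named by the nearest non-coding gene. Circles are the pooled list, squares replicate 1 and triangles replicate 2. The pooled values run from 518 to 1722, and every replicate 1 value lies above its replicate 2 value.

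The lncRNAs supplied most members, with 184 peaks nearest to 163 genes, of which 100 peaks (54.3%) were in both replicates. Their median pooled signal was 132. Of these peaks, 140 lay outside protein-coding genes, 41 in introns and 3 in exons. Counted by gene, 177 of 1683 lncRNA genes without a protein-coding start within 500 bp had a summit within 500 bp of a start (10.5%, 95% exact interval 9.09 to 12.1%), with 7.84% in the replicate 1 list and 7.19% in the replicate 2 list.

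Over all non-coding classes the share was 255 of 3126 genes, or 8.16%, where a summit may lie near several genes, and it was 20.9% for protein-coding genes (2911 of 13945). In the replicate lists the values were 5.89% and 5.37% for non-coding genes, against 16.9% and 14.8% for protein-coding genes. Genes with several annotated starts have more chances to hold a summit. Among genes with 1 start the shares were 8.0% of 3026 non-coding and 14.7% of 10246 protein-coding genes in the pooled list, 5.75% and 11.5% in replicate 1, and 5.29% and 10.1% in replicate 2. The non-coding share was thus the lower one in the pooled list and in both replicates' lists, with and without this restriction. The sets were not filtered alike. Non-coding genes with a protein-coding start within 500 bp were left out, while all protein-coding genes were kept. A summit near the starts of several protein-coding genes counts for each of them. How far this accounts for the lower non-coding share was not tested.

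**Figure D4:**
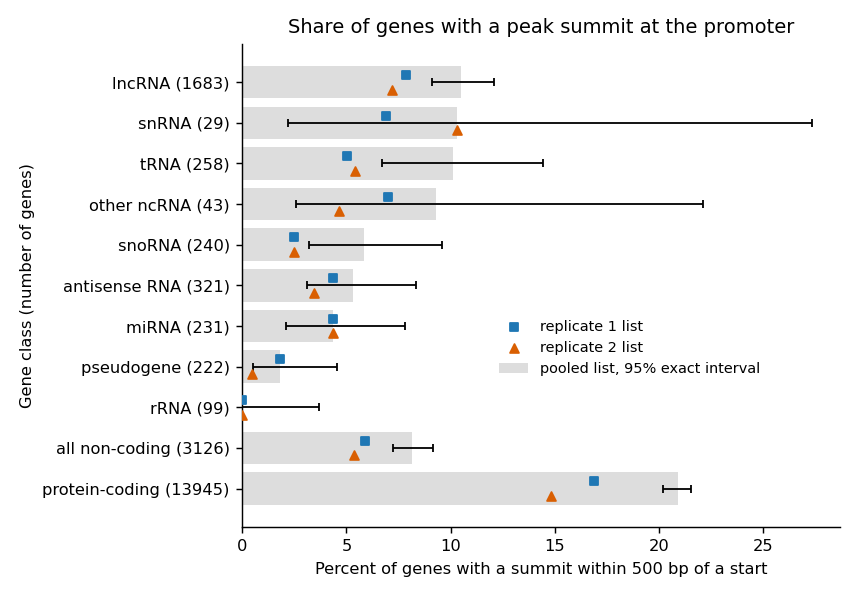
Percent of genes (x axis) with a summit within 500 bp of a start, by class (y axis, number of genes in brackets). Non-coding genes with a protein-coding start within 500 bp are left out, and all protein-coding genes are kept. Bars are the pooled list with 95% exact intervals, squares replicate 1 and triangles replicate 2. Protein-coding genes stand at 20.9%, lncRNAs at 10.5% and all non-coding genes together at 8.16%.

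The host transcripts of miRNAs were looked at as a group after their values had been seen, so the following numbers are a description only. Of 34 annotated non-coding transcripts that contain a miRNA hairpin and have no protein-coding start within 500 bp, 10 had a summit at a start (29.4%, 95% exact interval 15.1 to 47.5%), and 8 did in each replicate's list. The share was 8.16% over all non-coding genes and 10.5% over lncRNA genes, and the 34 hosts have 50 annotated starts, so that some had more than 1 chance to hold a summit. These 10 genes held 14 members, of which 10 were in both replicates. Their pooled signals ran from 5.05 to 1722 with a median of 223. The summit was upstream of the start in 13 of the 14, beside 126 of the other 239 members, and the median GC content was 50%, beside 34.7% in the others.

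The host of mir-14, lncRNA:CR43651, had a pooled signal of 387, with 262 in replicate 1 and 129 in replicate 2. The miRNA is known as a suppressor of cell death. Its peak also had its summit 118 bp upstream of the start, and 2 lower members lay within 500 bp of the mir-14 hairpin or its mature miRNA, with pooled signals of 100 and 64.9.

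The host of mir-276a, lncRNA:CR46006, had a peak at each of 2 annotated starts that lie far apart. The one at the downstream start had 284, 191 and 102 in the pooled, replicate 1 and replicate 2 lists, and the one at the upstream start had 236, 174 and 93.3. Measured from the summits, the hairpin was 1346 bp away from the first and 32896 bp from the second. The summits lay 137 bp and 129 bp upstream of their starts.

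The host of mir-275, lncRNA:CR43857, had 243 pooled, 142 in replicate 1 and 104 in replicate 2, with the summit 206 bp upstream. A member with its summit 431 bp upstream of the mir-275 hairpin was taller, at 306 pooled, 179 in replicate 1 and 109 in replicate 2. The hairpin of mir-305 began 608 bp downstream of that summit. In the mosquito Aedes aegypti mir-275 is known for its role in blood digestion and egg development.

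The host of mir-282, lncRNA:CR43626, also had a peak at each of 2 starts, with pooled signals of 230 and 228. Their GC content was 29.7% and 28.7%, the lowest of the 14, and the next was 30.7% at the lower peak of the mir-10 host. The peak of 228 had its summit 446 bp upstream of the host start. That summit lay in an exon of the protein-coding gene CG43389, on the same strand and 879 bp from its nearest start. The other 13 of the 14 lay outside protein-coding genes. The host of mir-8, lncRNA:CR43650, had 218 at one start, with 149 in replicate 1 and 65.7 in replicate 2, and 111 at another, where the peak passed the threshold in replicate 1 only. The miRNA mir-8 belongs to the miR-200 family and is known for its part in body growth.

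The host of bantam, lncRNA:CR43334, had 158 pooled, 106 in replicate 1 and 61.0 in replicate 2, and the bantam hairpin, which makes a growth-promoting miRNA that represses the cell death gene hid, began 13773 bp into the transcript. The shared host of mir-277 and mir-34, lncRNA:CR43459, had 99.7, 66.7 and 48.0. In flies mir-34 is known for its part in brain ageing.

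At the remaining hosts the peaks were low and were in neither replicate's thresholded list. The host of mir-10, lncRNA:CR42651, which lies in the Antennapedia complex of Hox genes, had pooled peaks of 93.5 and 5.05. The host of bereft, lncRNA:CR43314, a miRNA gene of eye bristle development, had 78.9, with the summit 39 bp inside the gene, the only 1 of the 14 not upstream.

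No summit was found within 500 bp of a start for the other 24 of the 34 hosts. They included lncRNA:CR44504, which carries 8 hairpins of the mir-309 cluster of the early embryo, lncRNA:CR45361 with mir-1 of muscle, lncRNA:CR45919 with mir-124 of neurons and lncRNA:let7C with mir-100, mir-125 and let-7.

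At annotated miRNA genes themselves there were 12 members, 9 of them in both replicates, with a median signal of 133. The annotated start of such a gene is the end of a hairpin, and for 4 of the 12, mir-9377, mir-92b, mir-4968 and 1 at mir-14, it is the end of a mature miRNA, so these are not transcription starts. The highest were mir-9377 at 519 (314 in replicate 1 and 204 in replicate 2), in an intron of Tis11, which encodes an mRNA decay factor, and mir-2491 at 342 (210 and 138), in an intron of fog, the ligand gene of gastrulation movements. They were followed by mir-275 at 306, described above, and mir-4962 at 265 (178 and 90.2), in an intron of the kinase gene Tlk. All 7 members inside protein-coding genes lay at miRNAs on the same strand as the gene. Of 13 miRNA genes listed for known roles in the embryo, mir-14 and mir-279 had a summit within 500 bp of the hairpin gene, that is 2 of 13. By gene, 10 of 231 miRNA genes had a summit (4.33%), in the pooled list and in both replicates' lists.

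The antisense RNAs held 24 members, 10 of them in both replicates, with a median signal of 90.6. In this class 16 of the 24 summits lay inside a protein-coding gene transcribed from the opposite strand. After asRNA:CR46145 and asRNA:CR45999 came asRNA:CR44429, in an intron of gce, which encodes a juvenile hormone receptor. This peak had 510 pooled, 374 in replicate 1 and 123 in replicate 2, with the summit 571 bp from the nearest start of gce. The fourth was asRNA:CR45281 at 329, with 175 and 153. By gene, 17 of 321 had a summit (5.30%).

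The snRNAs held 4 members. The U1 gene snRNA:U1:95Ca had 172 pooled, 92.9 in replicate 1 and 81.8 in replicate 2, the U2 gene snRNA:U2:34ABb had 145, 90.1 and 59.5, and snRNA:7SKa had 125.1, 49.4 and 75.4. The U5 gene snRNA:U5:63BC had 96.3 pooled and 44.9 in replicate 2, with no thresholded peak in replicate 1. U1, U2 and U5 are parts of the spliceosome, and 7SK RNA holds back a kinase of transcription elongation. In none of the 4 was the summit upstream of the start, and the distances were 62, 58, 235 and 15 bp into the gene. By gene, 3 of 29 had a summit in the pooled list (10.3%, 95% exact interval 2.19 to 27.4%), since the U2 gene has a protein-coding start close by and is not among the 29. Many snRNA genes have near-identical copies, and how reads that match several copies were placed is not stated in the sources.

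A separate list held 4 genes that could be counted, those of the 7SL, RNaseMRP and RNaseP RNAs, and 1 had a summit. This was RNaseMRP:RNA, the RNA of an enzyme of ribosomal RNA maturation, with 2 members, of 110 and 15.98, in an intron of CG10365. Both overlapped the same replicate peaks, of 53.4 in replicate 1 and 51.04 in replicate 2. The tRNA genes held 14 members, 6 of them in both replicates, and the tallest were tRNA:Lys-TTT-1-1 at 233, tRNA:Gln-TTG-2-1 at 190, tRNA:Pro-TGG-1-2 at 174 and tRNA:Ala-TGC-2-1 at 103. By gene 26 of 258 had a summit (10.1%), with 5.04% and 5.43% in the replicate lists, and tRNA genes also have near-identical copies.

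The small nucleolar RNAs (snoRNAs), which guide the modification of ribosomal RNA, held 8 members, 1 of them in both replicates. That was snoRNA:Or-CD13 at 139, with 81.6 in replicate 1 and 54.6 in replicate 2, on the opposite strand in an intron of egr, the fly tumour necrosis factor gene. The next were snoRNA:Psi18S-176 at 113, snoRNA:abba-a at 80.5 and snoRNA:Me18S-C1968 at 80.4, each in a single replicate's list. Of the 8 members, 4 lay in an intron and 2 in an exon of a protein-coding gene. In 5 cases the snoRNA was on the same strand as that gene, so its annotated start may not be a transcription start. By gene, 14 of 240 snoRNA genes had a summit (5.83%), with 2.50% in each replicate's list. At Uhg4, a host transcript of 7 snoRNAs, the peak had 267 pooled, 123.9 in replicate 1 and 134.5 in replicate 2. The summit lay 65 bp upstream of the start and 550 bp from the nearest protein-coding start, that of Boot. Of the 4 such Uhg genes without a protein-coding start within 500 bp, Uhg4 was the only 1 with a summit.

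The other classes were sparse. The remaining non-coding RNAs were sisRNA:4, in an intron of dpn, at 95.8 and sncRNA:157 at 73.8, both in neither replicate's list. Both lay in introns on the same strand as the protein-coding gene, so their annotated starts may not be transcription starts. Pseudogenes held 2 members, CR31032 at 91.5 and CR42490 at 89.0, and neither was in both replicates, while by gene 4 of 222 had a summit (1.80%). At ribosomal RNA genes 0 of 99 had a summit, which allows a share of up to 3.03% when set at 3 counts, and the upper end of the 95% exact interval was 3.66%.

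At several well-known non-coding genes no summit was found. The dosage compensation RNAs roX1 and roX2 had none, and so had the 4 non-coding genes of the Hox complexes on the list that could be counted, the mir-10 hairpin gene among them. The heat shock locus lncRNA:Hsromega had none in the thresholded lists. The ranked list of both replicates held a peak there (3R:21296308-21296422) with a signal of 318, a score of 1000 and its summit 200 bp from the start. It was 1 of 178 peaks, out of 8087, that had a score at or above 830, the lowest in the thresholded list, but no overlapping peak in the conservative list. Of these 178, 5 lay at promoters of non-coding genes only, and the others were asRNA:CR45908 at 326, lncRNA:CR45643 at 165, lncRNA:CR44938 at 157 and snoRNA:185 at 83.7. No source used here states why these peaks are missing from that list.

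The summits were spread widely over the 500 bp on either side of the non-coding starts. The median distance from the start was 218 bp, against 134 bp at protein-coding promoters. Each distance was to the nearest annotated start, and protein-coding genes have more starts per gene. There were 19607 starts for 13945 protein-coding genes, and 3245 for the 3126 non-coding genes counted above. How far this accounts for the differences in position was not tested. In successive steps of 100 bp away from the start the members numbered 58, 56, 49, 46 and 44, that is 22.9% in the nearest step and 17.4% in the farthest. At protein-coding promoters the corresponding ends were 35.6% and 7.71%. The summit was upstream of the start in 139 members (54.9%), against 68.8% at protein-coding promoters. From 300 to 500 bp downstream, each step of 50 bp held 4.74 to 7.11% of members and 1.61 to 1.96% of protein-coding peaks. With limits of 250 bp the upstream share of members was 64.8%. The protein-coding share under those limits was not computed.

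Both replicates' own lists gave the same order. In replicate 1 the median distance was 211 bp for non-coding and 147 bp for protein-coding promoters, and 60.9% and 71.0% of summits were upstream. In replicate 2 the distances were 211 bp and 131 bp, and the upstream shares 51.6% and 73.1%. The 20 members at tRNA, snRNA and RNaseMRP genes were closer, with a median of 100 bp and 10 of them in the nearest 100 bp, whereas those at lncRNAs had a median of 220.5 bp.

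**Figure D5:**
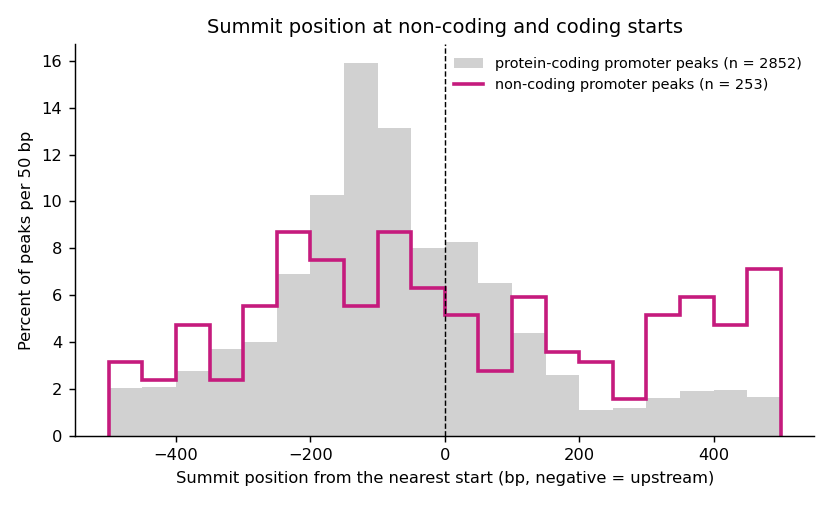
Position of the summit relative to the nearest start (x axis, bp, negative is upstream on the gene's strand) as percent of peaks per 50 bp (y axis). The line is the 253 peaks at non-coding promoters and the filled area the 2852 at protein-coding promoters. The protein-coding peaks pile up just upstream of the start, with 68.8% upstream, while the non-coding ones are spread, with 54.9% upstream.

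The limits of the rule cut through a continuous range of distances. The members farthest from their start were lncRNA:CR45618 at 498 bp with a signal of 278, lncRNA:CR45564 at 497 bp with 164 and lncRNA:CR44681 at 494 bp with 128. Just outside were lncRNA:CR44517 at 503 bp with 308, lncRNA:CR44619 at 505 bp with 1080 and tRNA:Phe-GAA-1-6 at 505 bp with 156. On the protein-coding side, the members nearest to a protein-coding start were asRNA:CR46044 at 508 bp with 229, lncRNA:CR42868 at 517 bp with 143 and asRNA:CR46105 at 520 bp with 72.1. Left out, though close to a non-coding start, were peaks at lncRNA:CR43899 and asRNA:CR43243, whose summits lay 494 and 477 bp from a protein-coding start and whose signals were 108 and 194, and a peak of signal 106 whose summit lay exactly 500 bp from one.

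Relative to protein-coding genes, 171 members lay outside them, 74 in an intron and 8 in an exon. Of the 82 inside, 57 were at a non-coding gene on the opposite strand and 25 at one on the same strand. The nearest protein-coding start was no more than 1000 bp away for 46 members and over 5000 bp away for 83, and the rest lay between, with a median of 3043 bp over all members. Members in both replicates made up 45.7% of the nearest set, 54.8% of the middle set and 51.8% of the farthest.

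More than 1 member was found at 24 non-coding genes. The largest number was 3, at lncRNA:CR43417, with signals of 8.27 to 98.5 over 741 bp. Pairs of tall peaks were found at lncRNA:CR44867, in an intron of the beaten path family gene beat-Ib, with 584 and 255, and at lncRNA:CR45251, with 461 and 306. In 29 members the peak overlapped another pooled peak.

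Chromosome X held 32 members, 2L and 2R 52 each, 3L 56 and 3R 61, and chromosome 4 held 0 of its 2 pooled peaks. As a share of the members X made up 12.6%, beside 19.7% of all pooled peaks. By gene the difference was smaller, with 7.92% of the 404 eligible non-coding genes on X holding a summit and 7.53 to 9.23% on the other large arms.

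The share of members with the core word of homeodomain sites lay near the background. TAATTA, searched on both strands of the summit base and 50 bases on either side, was present in 17 members (6.72%, 95% exact interval 3.96 to 10.5%), against 7.97% of all pooled peaks and 7.54% of those at protein-coding promoters. It was present in 7.11% of windows of the same size 500 bp to the left of the members and in 5.45% of windows centred on the 3245 starts of eligible non-coding genes. Of the 17 members, 8 were in both replicates and 7 were in the highest of the 4 groups by signal, and their signals ran from 69.0 to 1064 with a median of 102. The tallest was the third member of the list above, lncRNA:CR44339.

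Of the 8 members with TAATTA in both replicates, 4 are shown as examples of where the word lay. The peaks at lncRNA:CR44339, lncRNA:CR44651, asRNA:CR43469 and tRNA:Pro-TGG-1-2, of 1064, 768, 299 and 174, are not printed. Each is the plus strand of dm6 except that of lncRNA:CR45243, given on the minus strand, with the summit at base 51 and TAATTA in capitals.
mir-9377 (X:12665575-12665675, signal 519): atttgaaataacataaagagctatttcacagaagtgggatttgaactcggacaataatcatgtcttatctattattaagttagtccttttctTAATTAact
lncRNA:CR32636 (X:13332192-13332292, signal 334): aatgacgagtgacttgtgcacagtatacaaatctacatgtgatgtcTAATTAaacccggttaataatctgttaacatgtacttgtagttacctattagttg
lncRNA:CR45721 (2L:18310584-18310684, signal 283): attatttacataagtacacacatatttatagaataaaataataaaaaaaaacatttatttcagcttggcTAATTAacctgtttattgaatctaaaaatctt
lncRNA:CR45243 (3L:20950244-20950344, signal 233): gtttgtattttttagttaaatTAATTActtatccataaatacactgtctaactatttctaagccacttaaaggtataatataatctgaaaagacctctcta
The word lay at different distances from the summit in the 4 windows, and the GC content of the windows was 27.7%, 33.7%, 18.8% and 24.8%.

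Other promoter words were counted in the same windows. GAGAGAG, the GAGA factor word, was in 3.56% of members, beside 2.93% of all peaks, 4.38% at protein-coding promoters and 1.05% of windows at non-coding starts. TATAAA was in 18.6%, beside 18.4% of all peaks and 13.5% at non-coding starts. TCAGTT was in 7.51%, beside 7.14% and 12.4%. CACCTG, an E-box, was in 0.791%, beside 2.19% of all peaks and 3.79% of windows at non-coding starts.

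GGTCACAC and TATCGATA, words of promoters of broadly expressed protein-coding genes, and CAGGTAG, the word of the early activator Zelda, were each in 0 of 253 members. Among all peaks they were in 0.498%, 0.403% and 0.332%, so that a count near 0 in 253 windows is not far from those shares. GGTTCGA, part of the internal promoter of tRNA genes, was in 4 members (1.58%, beside 0.533% of all peaks), of which 2 were at tRNA genes, tRNA:Arg-TCT-1-1 and tRNA:Leu-AAG-1-3. A match is a description of letters and no evidence of binding.

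At the start sites themselves, TCAGTT with its A on the first transcribed base was found at 4 of the 232 starts nearest to a member (1.72%) and at 19 of 3245 starts of eligible non-coding genes (0.586%), beside 1.24% of 19607 protein-coding starts. Of the 13 starts of miRNA hosts nearest to a member it was at 2, which are the sites printed above. TATAAA beginning 20 to 45 bases before the start was at 8 of the 232 (3.45%), at 3.08% of the eligible non-coding starts and at 7.68% of the protein-coding starts.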

How the data were processed

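ChIP-seq peak lists of 2 biological replicates of whole embryos were used. The authors deposited peaks on dm6 scored by the irreproducible discovery rate (IDR), per the file names and readme texts, as ranked and thresholded lists per replicate and for both replicates together. Aligner and peak caller were not given in the sources used here. Each deposited peak carries a score of up to 1000, a signal on an unstated scale, a deposited −log10 q-value that was read but not used in a result, and a summit offset. The lists hold no counts, so depth is unknown.

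Gene starts came from Ensembl release 115, with transposable elements left out, and sequence from the NCBI Release 6 assembly, whose coordinates are those of dm6. Coordinates are 1-based. Overlap meant at least 1 bp, and where several replicate peaks overlapped a member the one of highest signal was taken. Non-coding genes were counted when no protein-coding start lay within 500 bp, and protein-coding genes were counted without such a limit. Words were searched on both strands of the summit base and 50 bases on either side. Records of mature miRNAs in the annotation were named by their hairpin.

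No p-values were computed, since peaks are not replicates. Named genes were the 20 strongest members in both replicates, up to 4 per class and those at the limits. Those with several peaks and the 4 tallest without a replicate partner were named too. So were those at the genes of 8 lists (dosage compensation, Hox complex, Hsromega, snRNA, 7SL with RNaseMRP and RNaseP, tRNA, snoRNA host, embryonic miRNA). Members and lists were chosen with earlier results of these data known, and the miRNA hosts after their values were seen. Python 3.11.15, numpy 2.4.6, pandas 2.3.3, scipy 1.17.1 and matplotlib 3.10.9 were used, and the counting steps were checked on simulated data. Alternatives were the conservative list, each replicate alone, the upper part of the list by signal, other limits, windows and overlap rules, and the biotypes and starts counted.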

Additional observations from a re-analysis of the deposited data

How the results depend on the processing

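Of 52 alternative values 35 stayed within the counting interval, the replicate spread or 1.5 times of the reported value, and 17 moved. With a single replicate's list the members numbered 157 to 174, their share in the other replicate was 73.6 to 79.0%, the median percentile 51.3 to 56.7, the share of non-coding genes with a summit 5.37 to 5.89%, the upstream share 51.6 to 60.9% and the TAATTA share 6.32 to 8.28%. A single list needs a partner in 1 other list only, so its share is not the same quantity. In the 50% of the list with the highest signal the members numbered 125, of which 90.4% were in both replicates, with a median percentile of 60.8 and 4.25% of genes with a summit. With 250 bp limits there were 162 members, a median percentile of 45.2, 4.80% of genes with a summit and 64.8% of summits upstream, and with 1000 bp limits 12.7% of genes had a summit. TAATTA was in 14.2% of windows with 100 bases on either side of the summit and in 2.77% of windows centred on the start. The conservative list, the 5 listed biotypes, the 5′ end of each gene and the other overlap rules moved none of the results run under them.

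No paired analysis was possible because there is only 1 group. Depth is unknown, no control library was used, and the signal scale is not given, so heights were compared within lists only. Members in the lower part of the signal range were rarely in both replicates, and whether they are bound sites was not tested.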
